A study of Mus musculus with 16 samples.

Results

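Avp, Oxt, Hcrt, Pmch, Crh, Npvf and Ucn3 encode precursors of peptides made by magnocellular, lateral, dorsomedial and paraventricular neurons of the hypothalamus. They were taken by name from the deposited gene count table and are 7 of its 45706 rows. Each name has 1 row, and all 7 passed the filter on low counts in each of the 5 comparisons made. The table came from bacTRAP, a method in which the ribosomal protein L10a, fused to GFP, is made only in cells with Cre recombinase and the ribosomes are then pulled down with anti-GFP antibodies. Cre acted in cells that express Pnoc, the precursor of the peptide nociceptin, and the tagged L10a came from the allele ROSA-STOP-L10a-bactrap, which the controls carried too. Hypothalami of 4 mice were pooled for each sample, so no value belongs to a single mouse. Each pool gave an input library, from an aliquot of the lysate before the pulldown, and a pulldown library.

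Pools 1 to 4 carried the genotype label Control (Lepr-flox) and pools 5 to 8 the label Pnoc Lepr deletion, which gave 4 groups of 4 libraries: control input, control pulldown, Lepr-deletion input and Lepr-deletion pulldown. All mice were on a C57Bl/6N background, fed chow and sampled random-fed in the morning, at 12 weeks per the treatment protocol and 10 to 12 weeks per the extraction protocol. The labels used here give no sex.

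Magnocellular neurons of the paraventricular and supraoptic nuclei make vasopressin (Avp) and oxytocin (Oxt), which are released into the blood from the posterior pituitary. The lateral hypothalamus holds separate neurons for orexin (Hcrt), a peptide of wakefulness, and for melanin-concentrating hormone (Pmch), a peptide of feeding and sleep. Corticotropin-releasing hormone (Crh) of the paraventricular nucleus starts the stress hormone axis, Npvf encodes the RFamide peptides related to gonadotropin inhibition, and Ucn3 encodes urocortin 3, a ligand of the second Crh receptor. The comparison of pulldown with input asks how much of the RNA of these cell groups was carried by ribosomes pulled down from Pnoc-expressing cells.

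Avp (ENSMUSG00000037727, GRCm38.p6 chromosome 2, 130580620 to 130582588) and Oxt (ENSMUSG00000027301, chromosome 2, 130574519 to 130577054) are neighbours, with 3565 bases between their annotated ends. Hcrt (ENSMUSG00000045471) lies on chromosome 11, from 100761693 to 100762931, and Pmch (ENSMUSG00000035383) on chromosome 10, from 88091072 to 88092374. Promoter windows of RefSeq (GRCm38.p6), from 250 bases before to 50 bases after an annotated transcription start, matched 6 of the 7 genes by symbol. The windows of these 4 genes are shown because the results that follow compare them as pairs, Avp with Oxt, whose reads were divided, and Hcrt with Pmch, whose input levels correlated. Capitals mark matches, on either strand, to 4 motifs that were searched: the TATA box TATAAA, the cAMP-response half-site TGACG, the nuclear receptor half-site AGGTCA and the E-box CACGTG.
Avp promoter, chr2:130582539-130582838, minus strand: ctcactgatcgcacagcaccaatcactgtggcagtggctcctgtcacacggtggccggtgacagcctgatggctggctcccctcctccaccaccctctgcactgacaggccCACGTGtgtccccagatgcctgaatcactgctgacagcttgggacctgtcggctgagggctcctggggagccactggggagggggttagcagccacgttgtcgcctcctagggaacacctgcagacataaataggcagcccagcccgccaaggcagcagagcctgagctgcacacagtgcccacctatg
Oxt promoter, chr2:130575919-130576218, plus strand: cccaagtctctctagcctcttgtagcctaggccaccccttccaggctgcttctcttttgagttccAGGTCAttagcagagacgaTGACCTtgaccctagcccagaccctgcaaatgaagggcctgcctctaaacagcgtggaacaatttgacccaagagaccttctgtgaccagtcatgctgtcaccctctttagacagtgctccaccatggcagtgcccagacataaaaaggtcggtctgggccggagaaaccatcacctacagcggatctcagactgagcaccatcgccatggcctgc
Hcrt promoter, chr11:100762882-100763181, minus strand: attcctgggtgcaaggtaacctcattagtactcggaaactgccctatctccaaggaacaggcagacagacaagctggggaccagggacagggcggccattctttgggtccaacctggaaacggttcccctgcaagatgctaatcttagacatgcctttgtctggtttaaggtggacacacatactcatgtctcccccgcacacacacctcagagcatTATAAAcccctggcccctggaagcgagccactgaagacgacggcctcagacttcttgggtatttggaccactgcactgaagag
Pmch promoter, chr10:88090822-88091121, plus strand: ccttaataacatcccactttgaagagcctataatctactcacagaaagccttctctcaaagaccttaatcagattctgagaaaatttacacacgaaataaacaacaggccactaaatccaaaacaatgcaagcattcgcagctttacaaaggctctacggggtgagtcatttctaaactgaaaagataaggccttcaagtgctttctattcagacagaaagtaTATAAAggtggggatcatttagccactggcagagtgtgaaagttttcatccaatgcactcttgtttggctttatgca
The Oxt window lies within the annotated span of Oxt. The Avp window held 1 E-box match, at -139 from the start, and the Oxt window 2 nuclear receptor half-site matches, at -185 and, on the other strand, at -166. Hcrt and Pmch each held a TATA box match, at -33 and -27, and so did Npvf at -29. The window of Ucn3 held none of the 4 motifs. Among 32851 promoter windows, 13.6% held TATAAA, 20.8% TGACG, 16.3% AGGTCA and 7.15% CACGTG, so each match is common and describes these letters only.

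Libraries held 64435952 to 78623636 estimated counts. Levels are CPM (counts scaled to a common library size) after TMM scaling, on which 3 counts, the floor used here, are worth 0.0469 to 0.0562 CPM in input and 0.0321 to 0.0395 in pulldown. Pnoc had 2.55 to 2.97 CPM in control input and 7.29 to 10.1 CPM in control pulldown. Lepr, the gene meant to be deleted, was no lower in pools 5 to 8, with 2.42 to 2.82 CPM in their pulldowns against 1.42 to 1.86 CPM in control pulldowns, and 4.78 to 8.14 against 3.49 to 5.11 CPM in input. Counts cover the whole gene, and which part was deleted is not known here, so the labels cannot be checked by them and are used as given. Mitochondrial ribosomal RNA made up 23.7% to 28.1% of input counts and 0.0622% to 0.0844% of pulldown counts.

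Pools 1 and 8 were low for the 7 genes. Pool 1 was the lowest of its group for 7 of the 7 genes in input and 6 in pulldown, and pool 8 for 6 of the 7 in each. Pool 1 was also the lowest control input for 17 of 25 other peptide genes, whereas pool 8 was the lowest Lepr-deletion input for 8 of the 25 and pool 5 for 11. In pulldown, pool 1 was the lowest control library for 12 of the 25, and pool 8 the lowest Lepr-deletion library for 14. The summed CPM of 3 GABAergic genes was lowest in those inputs too, at 1450 in pool 1 (1640 to 1710 in pools 2 to 4) and 1660 in pool 8 (1700 to 1950 in pools 5 to 7). In pulldown that sum was lowest of the control pools in pool 1, at 2570, but highest of the Lepr-deletion pools in pool 8, at 3470. The part of this in the results was not tested. Values without pools 1 and 8, a setting chosen after seeing the data, kept every call of pulldown against input for the 7 genes: Avp was then at -4.91 and -4.70 in the control and Lepr-deletion pools, Oxt at -3.96 and -3.86, Npvf at -2.43 and -1.95, Hcrt at -1.76 and -1.26, and Pmch at 0.69 and 0.78.

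In control pools the RNAs of both magnocellular hormones were far lower in the pulldown than in the input, those of Npvf and Hcrt were lower to a lesser degree, that of Pmch was higher, and those of Crh and Ucn3 did not pass the test. With the quasi-likelihood test of edgeR, adjusted by Benjamini-Hochberg over all genes, 1 of the 7 was higher and 4 were lower in pulldown. Of the 17570 genes tested, 64.8% passed in either direction, 30.1% as higher and 34.6% as lower. The median log2 fold change of the 7 genes was -1.68, beside -0.02 for all genes tested. Both libraries of a pool come from the same lysate, so a lower value in pulldown is a smaller share of the RNA pulled down than of the lysate. Between pools, less RNA of a gene in these bulk libraries can mean fewer cells of a type or less RNA per cell, which cannot be told apart.

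Avp had 9.81, 26.9, 20.8 and 38 CPM in the inputs of control pools 1 to 4 and 0.531, 0.769, 1.08 and 1.01 CPM in their pulldowns. The lowest input was thus far above the highest pulldown, and the ranges did not overlap. The log2 fold change was -4.83 (SE 0.40, adjusted p = 7.5e-07), from a mean of 23.9 ± 11.8 CPM in input to 0.848 ± 0.25 CPM in pulldown (SD, n = 4 each). It ranked at percentile 1.86 of the fold changes of all genes tested. Oxt had 9.29, 28.6, 20 and 26.7 CPM in the same inputs and 1.06, 1.73, 1.17 and 1.96 CPM in the pulldowns. Again no pulldown came near an input, and the log2 fold change was -3.85 (SE 0.34, adjusted p = 1.26e-06, percentile 4.49).

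Both hormone RNAs were also lower in pulldown in the pools labelled Lepr deletion. Avp had 26.4, 22.6, 30.4 and 17.3 CPM in the inputs of pools 5 to 8 and 1.21, 1.05, 0.814 and 0.751 CPM in the pulldowns, a log2 fold change of -4.66 (SE 0.19, adjusted p = 1.87e-10). Oxt had 24.7, 31.3, 27.4 and 17.3 CPM in input and 1.77, 2.08, 1.93 and 0.989 CPM in pulldown, at -3.90 (SE 0.21, adjusted p = 3.27e-09). Input exceeded pulldown in every pool, by 18.5 to 37.6 times for Avp and 8.73 to 17.5 times for Oxt.

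Avp and Oxt cannot be fully separated in these counts. Both encode a neurophysin, in a closely alike stretch of their coding sequences, and the estimated counts show that reads were divided between them. The Avp count was whole in 3 of the 16 libraries, while the sum of both counts was whole, within 0.005, in 16 of 16. Avp made up 42% to 58.7% of the sum in input libraries and 29.7% to 48% in pulldown libraries. As a single row, a setting chosen after seeing the data, the summed RNA had a log2 fold change of -4.29 (edgeR adjusted p = 6.99e-07) in control pools. In pools labelled Lepr deletion it was -4.22 (adjusted p = 3.24e-10), and in each pool the pulldown kept a ratio of 0.0451 to 0.0835 of the input level. The sum, which needs no division of reads, was thus lower in pulldown as each gene was, whereas the gap between the values of Avp and Oxt rests on that division.

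Npvf (ENSMUSG00000029831, chromosome 6, 50650672 to 50654445) encodes the RFamide-related peptides and is made by a small group of dorsomedial hypothalamic neurons. It had 3.98, 4.49, 7.05 and 5.44 CPM in control inputs and 0.505, 0.887, 1.09 and 1.2 CPM in control pulldowns. In pools 5 to 8 it had 5.14, 3.5, 3.57 and 4.38 CPM in input and 1.14, 1.04, 1.01 and 1.37 CPM in pulldown. Every pulldown library was below every input library of its genotype. The log2 fold change was -2.53 (SE 0.26, adjusted p = 4.78e-06) in control pools and -1.88 (SE 0.17, adjusted p = 5.64e-07) in pools labelled Lepr deletion.

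Hcrt had 8.87, 20.4, 28.9 and 21.8 CPM in control inputs and 4.08, 6.68, 8.04 and 6.4 CPM in control pulldowns. Pools 5 to 8 had 16.8, 10.3, 13.1 and 9.14 CPM in input and 7.25, 4, 5.62 and 2.57 CPM in pulldown. Groups did not overlap, although the gap was narrow: the lowest control input, of pool 1, stood next to the highest control pulldown, of pool 3. The log2 fold change was -1.68 (SE 0.30, adjusted p = 0.000415) in control pools and -1.35 (SE 0.26, adjusted p = 0.000516) in the others. On TPM values in place of scaled counts the difference did not pass, with limma on log2(TPM + 1) giving -0.57 (adjusted p = 0.13) and -0.46 (adjusted p = 0.122) for the 2 genotypes.

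Pmch, the precursor of melanin-concentrating hormone, was the 1 gene of the set that was higher in pulldown. Its inputs in control pools had 121, 204, 234 and 223 CPM and its pulldowns 255, 370, 316 and 385 CPM. In pools 5 to 8 it had 222, 140, 161 and 122 CPM in input and 339, 284, 279 and 227 CPM in pulldown. All pulldowns exceeded all inputs of their genotype, by a narrow gap in each, and within a pool the pulldown was 1.35 to 2.11 times the input. The log2 fold change was 0.75 (SE 0.19, adjusted p = 0.00399, percentile 95.5) in control pools and 0.80 (SE 0.16, adjusted p = 0.000593) in pools labelled Lepr deletion. Pmch overlaps Parpbp, a gene of DNA repair, by 977 bases, and the counts of the pair summed to whole numbers in 16 of 16 libraries, so reads were divided here too. Parpbp took 0.757% to 1.44% of that sum, and its own enrichment was 0.38 (adjusted p = 0.121 by edgeR) in control pools and 0.87 (adjusted p = 0.00127) in the others. With reads divided between these genes and no strand setting given, their counts are uncertain by that division.

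Crh and Ucn3 had the lowest mean levels of the 7 genes in each group, and no enrichment was detectable for either. Their counts were low but above the floor of 3, at 6 to 97 for Ucn3. Crh (ENSMUSG00000049796, chromosome 3, 19693401 to 19695396) had 0.21, 0.449, 0.339 and 0.395 CPM in control inputs and 0.31, 0.438, 0.253 and 0.516 CPM in control pulldowns, from 7 to 47 counts in any of the 16 libraries. In pools 5 to 8 it had 0.476, 0.485, 0.389 and 0.117 CPM in input and 0.26, 0.335, 0.139 and 0.119 CPM in pulldown. The groups overlapped in both genotypes, with log2 fold changes of 0.11 (95% interval -0.64 to 0.86, adjusted p = 0.798 by edgeR) and -0.78 (95% interval -1.81 to 0.25, adjusted p = 0.176). Without the Lepr-deletion input of pool 8, whose Crh was the lowest of all inputs, the second value was -1.07 (adjusted p = 0.0468). Crh shares 1124 bases with the annotated non-coding gene Gm42189, and strand was not known, so its counts may include reads of that gene.

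Ucn3 (ENSMUSG00000044988, chromosome 13, 3940688 to 3945349) had 0.263, 0.712, 0.695 and 0.721 CPM in control inputs and 0.252, 0.737, 0.897 and 0.692 CPM in control pulldowns, at 0.09 on the log2 scale (95% interval -0.80 to 0.99, adjusted p = 0.857 by edgeR). Pools 5 to 8 had 1.26, 0.813, 0.389 and 0.252 CPM in input and 1.15, 0.508, 0.197 and 0.0791 CPM in pulldown, at -0.49 (95% interval -1.90 to 0.92, adjusted p = 0.537). The values of the 2 fractions overlapped in both genotypes. Among the Lepr-deletion inputs the highest was 1.26 CPM and the lowest 0.252 CPM. Within each of pools 5 to 8 the pulldown was lower, at 0.908, 0.625, 0.507 and 0.314 of the input, and with the pool as a block the value was -0.75 (adjusted p = 0.0741 by edgeR).

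In pools labelled Lepr deletion the same directions were called as in controls, with 1 gene higher and 4 lower. There 61.6% of 17423 genes passed, 28.8% as higher and 32.8% as lower, and the median of the 7 genes was -1.35 beside -0.01 for all genes tested. Scaling changed the background but not these calls. With library totals in place of TMM factors the median of all genes moved to 0.53 in control pools and 0.44 in pools labelled Lepr deletion, and 10706 genes passed as higher and 3338 as lower in control pools, against 5297 and 6084 with TMM. In the other pools that split was 10002 and 3436, against 5026 and 5714. The 7 genes still gave 1 higher and 4 lower in each genotype, with medians of -1.13 and -0.89. On log2(TPM + 1) the median of all genes was 0.93 in control pools and 0.86 in the others, with 11667 genes higher and 1200 lower, and 11464 and 1315, by limma. Of the 5 peptide genes that could be tested there, Pmch was higher, at 1.78 in control pools and 1.75 in the others, and Avp, Oxt and Npvf were lower in each genotype. Avp was at -3.46 and -3.52 on that scale, Oxt at -2.63 and -2.88 and Npvf at -1.31 and -0.80. On log2(TPM + 0.1) those medians were 1.05 and 0.96, and the same 4 calls were made.

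**Figure D1:**
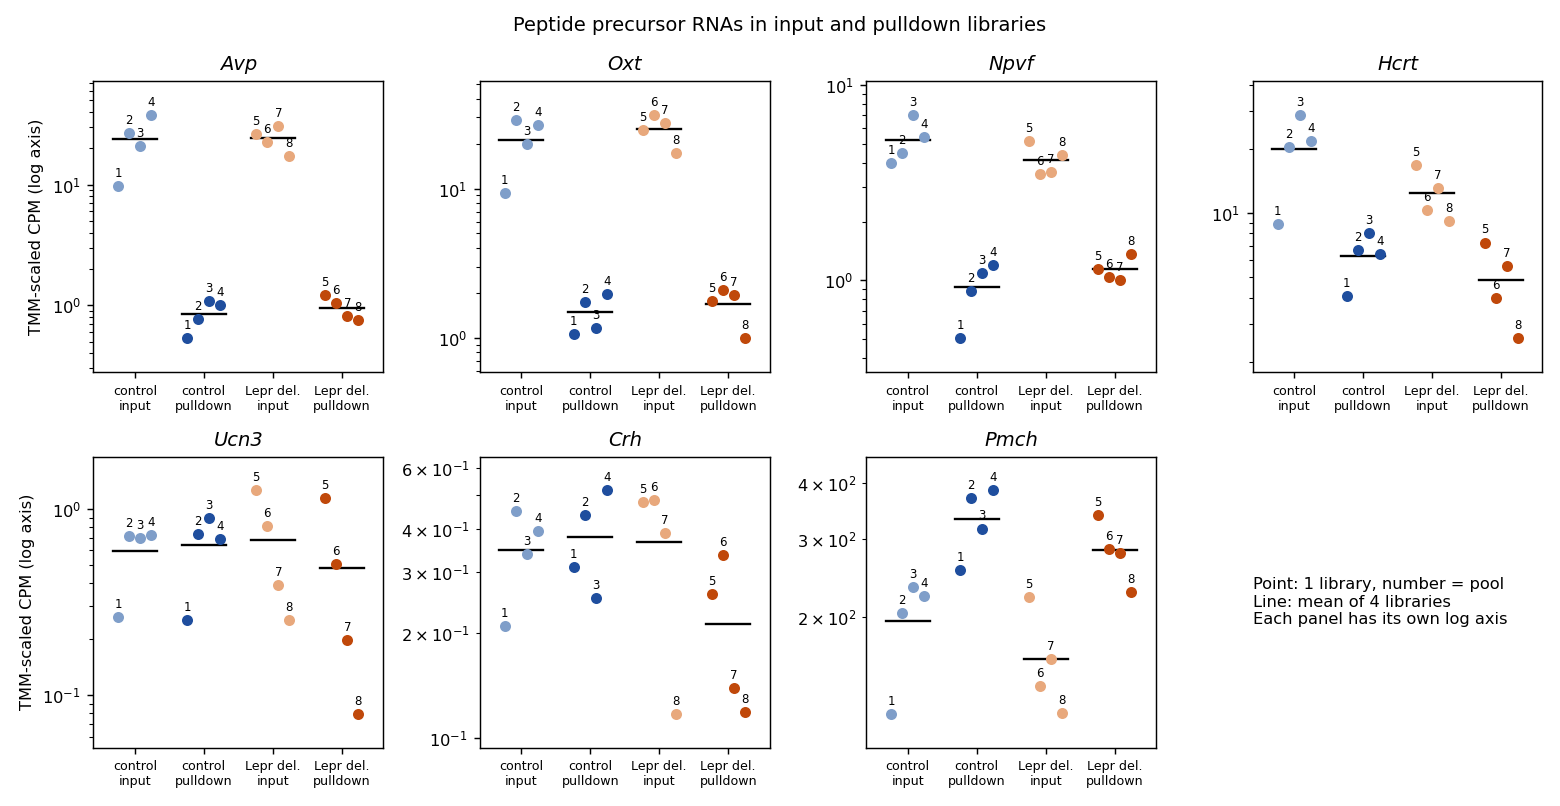
TMM-scaled CPM (log axes, a separate one in each panel) of the 7 peptide genes in the 16 libraries; points are libraries with their pool number and lines are group means of 4 libraries. Avp, Oxt, Npvf and Hcrt sit lower in pulldown without overlap, Pmch sits higher, and Crh and Ucn3 overlap; pools 1 and 8 are at the bottom of most groups.

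Levels of different genes can be compared only per length, for which the deposited TPM were used, within a group. In control input Pmch led with 432 ± 111 TPM (SD, n = 4). Avp (75.2 ± 37.5), Oxt (73.4 ± 30.4) and Hcrt (61.5 ± 25.1) followed with ranges that overlapped from one to the next, then Npvf (10.4 ± 2.6), Ucn3 (0.571 ± 0.212) and Crh (0.38 ± 0.11), the last 2 overlapping. In control pulldown the order was Pmch (1470 ± 291 TPM), Hcrt (39.1 ± 10.7), Oxt (10.4 ± 3.19), Avp (5.38 ± 1.67), Npvf (3.67 ± 1.28), Ucn3 (1.22 ± 0.53) and Crh (0.817 ± 0.271). Avp overlapped Npvf there, and Ucn3 overlapped Crh. Vasopressin RNA, which was level with Oxt and Hcrt in control input, was thus below both in control pulldown. Its place relative to Oxt rests on the division of reads between them.

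In Lepr-deletion input the order was Pmch (383 ± 93.4 TPM), Oxt (94.7 ± 23.5), Avp (82.1 ± 18.1), Hcrt (40.8 ± 10.1), Npvf (8.88 ± 1.45), Ucn3 (0.692 ± 0.453) and Crh (0.429 ± 0.201). Oxt overlapped Avp, and Ucn3 overlapped Crh. In Lepr-deletion pulldown it was Pmch (1280 ± 180 TPM), Hcrt (30.7 ± 12.4), Oxt (12.1 ± 3.27), Avp (6.18 ± 1.2), Npvf (4.65 ± 0.783), Ucn3 (0.912 ± 0.895) and Crh (0.464 ± 0.212). Oxt, Avp and Npvf overlapped from one to the next, and so did Ucn3 and Crh.

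Set beside 25 other hypothalamic peptide genes that could be tested (Galp, of 26 listed, was not), the 7 genes spread over most of the range of enrichment. In control pools 14 of those 25 were higher and 7 lower, with a median of 0.61, and in the other pools 14 were higher and 7 lower, with a median of 0.52. The shares of all genes tested were 30.1% higher and 34.6% lower in control pools, and 28.8% and 32.8% in the others. Of the 32 peptide genes together, Avp and Oxt ranked lowest in control pools, Npvf was 4th and Hcrt 6th from the lowest, and Ucn3 and Crh were in the middle. Pmch ranked 11th from the highest. Other peptides at the low end were Qrfp, an RFamide of the hypothalamus, at -3.48 and Vip, of the suprachiasmatic nucleus, at -2.09. The remaining other peptides called lower in control pools were Nmb (-1.61), Prok2 (-1.24), Pomc (-1.14), Nms (-0.71) and Pdyn (-0.64). In pools labelled Lepr deletion Pomc, at -1.55, lay below Hcrt at -1.35. At the high end stood Ghrh, growth hormone-releasing hormone, at 2.39, Sst, somatostatin, at 2.13, Nts, neurotensin, at 1.43, Cartpt, the CART precursor, at 1.08, and Pnoc itself at 1.68. The peptide genes Gnrh1 at 2.30, Trh at 1.63, Gal at 1.43 and Penk at 1.14 also ranked above Cartpt. In control pools the value of Pmch was below that of each of these high-end genes, a difference that was not tested. In pools labelled Lepr deletion Pmch, at 0.80 and 10th from the highest, lay above Cartpt at 0.53, Qrfp at -3.94 lay just below Oxt at -3.90, Npvf was again 4th and Hcrt 7th from the lowest. With library totals as the scale 14 of the 25 other peptides were higher and 5 lower in control pools, and 15 and 5 in the others, beside 10706 of 17570 and 10002 of 17423 genes that were higher.

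**Figure D2:**
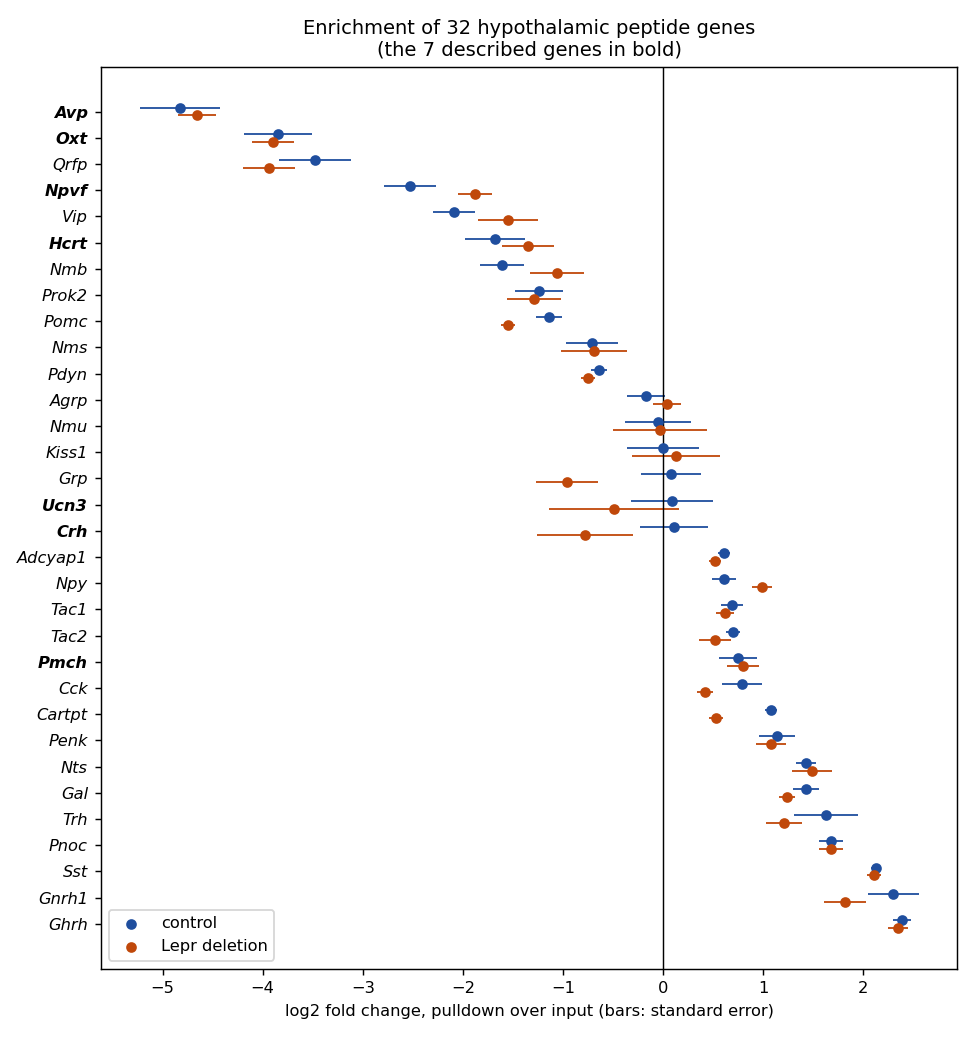
Log2 fold change of pulldown over input (x axis) for 32 hypothalamic peptide genes (y axis, the 7 described genes in bold, ordered by the control value); points are fitted values for control and Lepr-deletion pools and bars are standard errors. Avp and Oxt are at -4.83 and -3.85 in control pools, and Pmch is at 0.75, below Pnoc at 1.68.

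Markers of glial and other non-neuronal cells were low in pulldown, and the magnocellular values lay beside theirs. Of the astrocyte markers 7 of 7 were lower in control pulldown (median -4.61), of the oligodendrocyte markers 6 of 6 (-3.88), of the microglia markers 6 of 6 (-4.62), of the tested vascular markers 3 of 3 (-3.60) and of the tanycyte and ependyma markers 4 of 4 (-3.14). Gja1, the astrocyte connexin, was at -4.78, Aqp4, the astrocyte water channel, at -4.85, and P2ry12, a microglial receptor, at -5.03. Avp at -4.83 lay within the range of these glial genes, while Hcrt at -1.68 and Npvf at -2.53 were less depleted than the median of each of these 5 lists. The GABAergic genes Gad1, Gad2 and Slc32a1 were all higher, with a median of 1.00. In sums, astrocyte markers had 2430 to 2770 CPM in control input and 135 to 154 CPM in control pulldown, and GABAergic genes 1450 to 1710 and 2570 to 3170 CPM. These directions held for each of those lists, in both genotypes, with library totals and with limma on TPM, among the markers each could test, except that 2 rather than 3 vascular markers passed in control pools with library totals. Whether the glial RNA in the pulldown and the hormone RNA left there have a common source was not tested.

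Pituitary markers were listed because vasopressin and oxytocin axons end in the posterior lobe of that gland, though the listed genes do not mark that lobe. Of 7 pituitary markers, Tshb, the thyrotropin subunit, and Cga, the common hormone subunit, could be tested in control pools, and both were lower in pulldown, at -1.20 and -4.54. Tshb reached 268 counts in a control input and 189 in a control pulldown, and Cga 426.6 and 27, beside 227 to 436 counts of Npvf in control inputs. Growth hormone (Gh) reached at most 21 counts in a control input and 91 in a Lepr-deletion input, prolactin (Prl) 13 and 74, and Pou1f1, a pituitary transcription factor, 0 and 2.

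Transcription factors and markers of the neurons that make these peptides went both ways. Of the 10 genes listed, 6 were higher and 4 lower in control pulldown (median 0.36), and 6 were higher and 3 lower in the other pools (median 0.32). Among all genes tested, 30.1% were higher and 34.6% lower in control pools, and 28.8% and 32.8% in the others. Sim1 and Otp, both needed for the magnocellular and paraventricular neurons to form, were higher, at 0.67 (SE 0.08) and 0.79 (SE 0.08) in control pools and at 0.71 and 0.82 in the others. Pou3f2, a POU factor of the same neurons, was lower, at -1.66 (SE 0.08) and -1.55, and Lhx9, a factor of orexin neurons, was lower too, at -1.94 (SE 0.19) and -1.65. These factors are also made in many other neurons, so they do not mark the peptide cells alone. With library totals as the scale 7 were higher and 3 lower in each genotype. On that scale 10706 of 17570 genes were higher and 3338 lower in control pools. In the others 10002 of 17423 were higher and 3436 lower.

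With TMM scaling, some receptors for the 7 peptides were higher in pulldown and others lower. Of 12 receptor and binding protein genes 10 could be tested. Mchr1, the receptor of melanin-concentrating hormone, was higher in control pulldown at 0.43 (SE 0.10, adjusted p = 0.00305 by edgeR), Crhr1, the first Crh receptor, at 0.57 (SE 0.14) and Crhbp, which binds Crh outside cells, at 0.33 (SE 0.13, adjusted p = 0.0491). Oxtr, the oxytocin receptor, was lower at -0.47 (SE 0.08). The other 6 tested, Avpr1a, Hcrtr1, Hcrtr2, Crhr2, Npffr1 and Npffr2, had values from -0.16 to 0.27 and did not pass.

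In pools labelled Lepr deletion the same 3 were higher, Mchr1 at 0.57, Crhr1 at 0.58 and Crhbp at 0.61. Lower there were Oxtr at -0.35, the vasopressin receptor Avpr1a at -0.37 and Npffr2, a receptor of RFamide peptides, at -0.72. With library totals as the scale none of the 10 passed as lower in either genotype, and 7 and 6 were higher, where 10706 of 17570 and 10002 of 17423 genes were higher. On that scale all 10 values were above 0 in control pools, Oxtr included, and 9 of 10 in the others. The 3 of 10 that were higher with TMM are near the 30.1% and 28.8% of all genes. The vasopressin receptors Avpr1b and Avpr2 had at most 6 and 1.932 counts in any library and were not tested. The related ligands Ucn, Ucn2 and Npff had at most 1, 1 and 12 counts and were not tested either.

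Between genotypes, none of the 7 peptide RNAs passed in pulldown, in input or in the difference of enrichment. Of 16859 genes tested in pulldown 0.641% passed, of 17735 in input 0.231% and of 18530 in the difference of enrichment 0.0108%, all with edgeR. At an unadjusted p under 0.05 the count was 0 of 7 in pulldown, 1 of 7 in input and 0 of 7 in the difference. The shares of all genes given above are for the adjusted p, and those at the unadjusted threshold were not computed, so these counts have no background beside them. DESeq2 also called none, among 6 genes in pulldown and in input, where it gave Crh no adjusted p, and 7 in the difference. Levels of the 2 genotypes overlapped for each of the 7 genes, in pulldown and in input.

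In pulldown, Lepr deletion minus control, the log2 differences were 0.19 for Avp (95% interval -0.36 to 0.73), 0.20 for Oxt (-0.34 to 0.74), -0.36 for Hcrt (-0.96 to 0.24) and -0.22 for Pmch (-0.51 to 0.07). For Npvf the difference was 0.31 (-0.23 to 0.85), for Ucn3 -0.40 (-1.73 to 0.93) and for Crh -0.81 (-1.64 to 0.03). These intervals leave room for changes of the size shown by their bounds, so a p that missed the threshold does not show equal levels. The narrowest interval was that of Pmch, the most deeply counted gene of the set.

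In input the largest difference was that of Hcrt, at -0.70 (SE 0.27, adjusted p = 0.274 by edgeR), with 20 ± 8.3 CPM in control and 12.3 ± 3.4 CPM in Lepr-deletion pools. Control pool 1, at 8.87 CPM, was below all 4 Lepr-deletion pools, and the other 3 control pools were above all 4 of them. Without the control input of pool 1 the difference was -0.95 (adjusted p = 0.0198), and without pools 1 and 8, a setting chosen after seeing the data, -0.83 (adjusted p = 0.0201). Input differences of the other genes were 0.02 for Avp, 0.25 for Oxt, -0.28 for Pmch, 0.07 for Crh, -0.34 for Npvf and 0.18 for Ucn3, with adjusted p of 0.416 to 0.987. The sign of Avp in input changed without pools 1 and 8, to -0.11.

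For the difference of enrichment between genotypes, the smallest p of the set was that of Npvf, whose depletion was weaker by 0.64 on the log2 scale in pools labelled Lepr deletion (SE 0.32, adjusted p = 0.57 by edgeR). Its pulldown-to-input ratio was 0.127 to 0.22 in control pools and 0.221 to 0.313 in the others, ranges that met but did not cross. Values for the other genes were 0.16 for Avp, -0.06 for Oxt, 0.33 for Hcrt, 0.04 for Pmch, -0.89 for Crh and -0.59 for Ucn3. Of the listed genes of other kinds, Cartpt passed in the genotype comparison of pulldowns (-0.59, adjusted p = 0.00399 by edgeR) and Gja1 in that of inputs (-0.33, adjusted p = 0.00649).

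For 4 of the 7 genes the level in the pulldown followed the level in the lysate of the same pool by Pearson's r, and for 2 of them also by rank. Over the 8 pools, after removal of the genotype means, pulldown and input levels on the log2 scale correlated positively for 7 of 7 genes. By exact permutation of the pairings within genotype (two-sided, 576 pairings, smallest possible p 0.00174, adjusted over 7 genes) 4 passed. Only these 7 genes were tested, so the share of all genes that would pass is not known, and the count cannot be called particular to them. Those were Oxt (r = 0.83, adjusted p = 0.0122, rho = 0.88), Hcrt (r = 0.86, adjusted p = 0.0122, rho = 0.86), Pmch (r = 0.87, adjusted p = 0.0304, rho = 0.74) and Ucn3 (r = 0.98, adjusted p = 0.0243, rho = 0.83). By rho alone Oxt and Hcrt passed, each with an adjusted exact permutation p of 0.0365, while Pmch and Ucn3 had 0.0749. Without the 2 pools whose input was farthest from the median, r was 0.90 for Oxt, 0.96 for Hcrt and 0.96 for Ucn3, but 0.51 for Pmch, whose relation rests in part on pools 1 and 8.

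Crh (r = 0.69, exact permutation adjusted p = 0.0997), Npvf (r = 0.71, adjusted p = 0.117) and Avp (r = 0.64, adjusted p = 0.151) did not pass. Their rho were 0.79, 0.76 and 0.43. For Avp r was 0.07 without pools 1 and 4, so its relation rests on those pools. Both libraries of a pool come from the same lysate, so the relation is between pools of animals, not between cells.

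**Figure D3:**
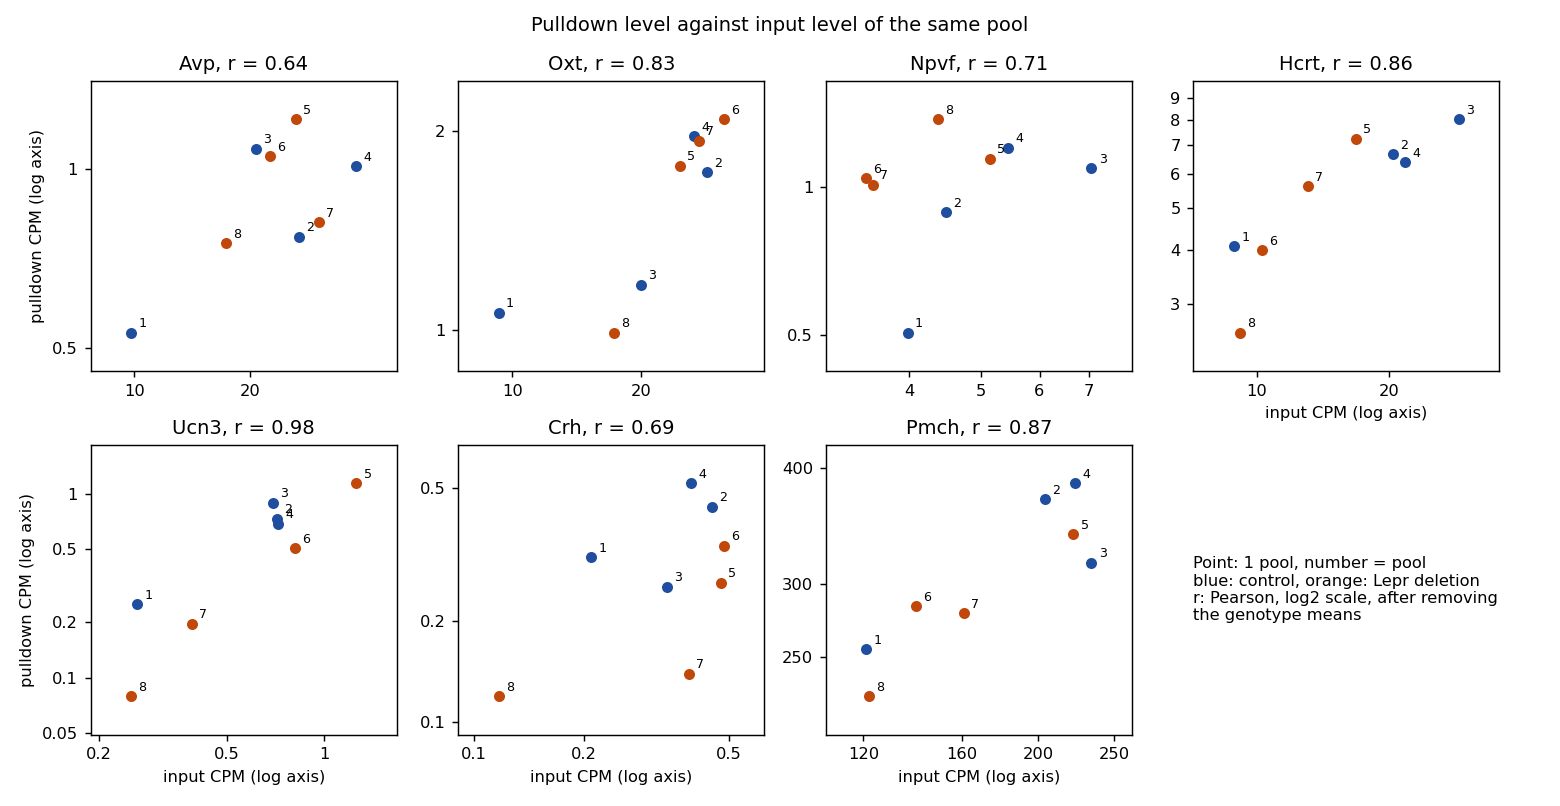
Pulldown level against input level in TMM-scaled CPM (both axes log) for the 7 genes; each point is a pool with its number, blue for control and orange for Lepr deletion, and r is Pearson's on the log2 scale after removal of genotype means. Points of Ucn3, Pmch and Hcrt rise from lower left to upper right (r of 0.98, 0.87 and 0.86), and those of Avp scatter most (r of 0.64).

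Of the 21 pairs of peptide genes, 1 varied together between input libraries beyond the adjusted threshold. All 21 pairs of the 7 genes had a positive r over the 8 inputs after removal of genotype means (median 0.70), 8 of them with an exact permutation p under 0.05, and 7 of the 21 turned negative without the 2 farthest pools. Pairs of other genes were not tested, so the share of such pairs among all genes is not known. The pair that passed was Hcrt and Pmch, the 2 peptides of the lateral hypothalamus (r = 0.96, exact permutation p = 0.00174, the smallest these permutations can give, adjusted over 21 pairs p = 0.0365, rho = 0.98). Its r was 0.99 without pools 1 and 3, the farthest from the Hcrt median. Their promoter windows, printed above, both hold a TATA box match near the start, which is described here without any link to the levels.

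The magnocellular pair Avp and Oxt had r = 0.90 (exact permutation p = 0.0208, adjusted p = 0.109, rho = 0.74), and r = 0.75 without pools 1 and 4. Since reads were divided between these 2 genes, part of their relation can come from the counting, which was not tested. Several relations of Oxt with peptides of other nuclei rested on pools 1 and 8. Oxt with Hcrt went from 0.72 to -0.93 without pools 1 and 8, Oxt with Pmch from 0.70 to -0.69 and Oxt with Npvf from 0.17 to -0.91. Other pairs across nuclei kept a positive r, such as Pmch with Npvf (0.70, and 0.84 without pools 1 and 8) and Hcrt with Ucn3 (0.71, and 0.70 without pools 1 and 3). Neither passed, with exact permutation adjusted p of 0.15 and 0.123.

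**Figure D4:**
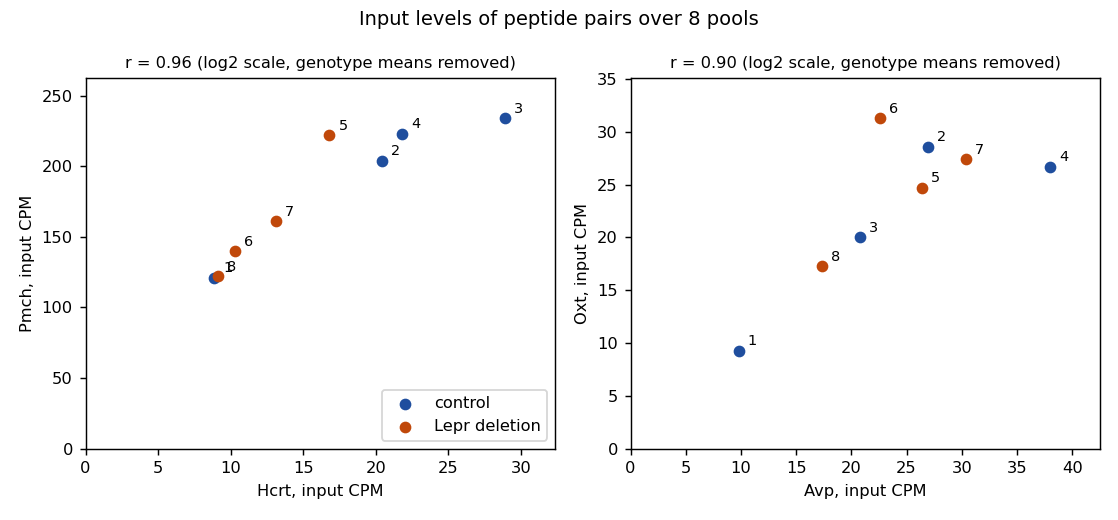
Input levels in TMM-scaled CPM (linear axes from 0) of Pmch against Hcrt and of Oxt against Avp; points are the 8 pools with their numbers, blue for control and orange for Lepr deletion. Pmch and Hcrt rise together (r of 0.96), and Avp and Oxt do so with more scatter (r of 0.90).

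Genes with input patterns most like those of the 7 were found among genes with a mean log2 CPM of at least 2, by r over the same 8 inputs, as a description with no p. For Avp these were Tmem59l, Slc39a9 and Derl1 (r = 0.98 each), and for Oxt Rmdn3 (0.98), Cnpy4 (0.97) and Scamp3 (0.97). For Hcrt they were Cnnm2 (0.99), Micu2 (0.98) and Myadm (0.98), and for Pmch Tspan18 (0.99), Tmem19 (0.98) and Micu2 (0.98), so Micu2, a regulator of mitochondrial calcium uptake, was on both lists. Crh was like Fign (0.97) and Cdh9 (0.96), Npvf like Atp6v0c (0.97), Rnasek (0.95) and Angpt1 (0.94), and Ucn3 like Panx2 (0.97), Nomo1 (0.96) and Nptn (0.96). The genes share the same 8 libraries and their depth.

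The authors' deposited table of comparisons, made from the same libraries and so not independent, gave closely similar fold changes where it held a value. In the authors' deposited table Avp was at -4.82 in control pools and -4.65 in the others, Oxt at -3.84 and -3.89, Npvf at -2.51 and -1.86, and Hcrt at -1.67 and -1.34. Pmch was at 0.76 and 0.81 in the authors' deposited table. Crh was at 0.12 and -0.77, and Ucn3 at 0.11 and -0.48, in the authors' deposited table. It held no value for Crh between genotypes, or for Ucn3 between genotypes in input. For Hcrt in input between genotypes the authors' deposited table gave -0.70 with an adjusted p of 0.36.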

How the data were processed

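RNA was sequenced from 16 libraries, an input and a bacTRAP pulldown of 8 pools of 4 mice. Salmon 1.10.1, DESeq2 1.38.3 and the build GRCm38 are named in the submitters' processing notes. Trimming, annotation release, strand setting and the design of the authors' comparisons are not given in the sources used here. The authors deposited estimated counts per gene, the same counts rescaled for gene length, and TPM per gene. They also deposited log2 fold changes with adjusted p-values for 4 comparisons.

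The estimated counts, rounded, entered the quasi-likelihood test of edgeR 4.0.16 (R 4.3.3) with TMM scaling, filterByExpr (minimum count 10, minimum total 15) and Benjamini-Hochberg adjustment over all genes at 0.05. Tests were two-sided, each used the 8 libraries of its pair of groups, and the difference of enrichment used all 16. The 95% intervals come from the same fit. The edgeR fit was tried on simulated counts for control enrichment and for genotype in pulldown, with a single spread for all genes. The other methods were not tried on simulated data. CPM are TMM-scaled over the 16 libraries, and correlations used log2(CPM + 0.5). Tables carry no molecular identifiers, so the floor of 3 counts covers counting error only.

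Libraries held 64435952 to 78623636 counts. Input and pulldown of a number come from 1 lysate per the labels' protocols, so the numbers pair these libraries. Deviations from the group means correlated between them at 0.08 to 0.59 over 11196 genes, with the own number best in 7 of 8 pools. Groups of other genotypes share no numbers. Pools are separate sets of animals.

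The members and the gene lists were chosen with earlier results of these data known. Lists held peptide receptors and related ligands, other hypothalamic peptides, genes of the members' neurons, and markers of astrocytes, oligodendrocytes, microglia, vascular cells, tanycytes and ependyma, pituitary and GABAergic neurons. Named were all members, receptors and ligands, the 4 members of each other list with the smallest p in control enrichment where the text needed them, any list member past the threshold between genotypes, and the 3 genes most like each member in input, clone names left out. Of these, 1 is not reported here. Qrfp, Vip, Nmb, Prok2, Pomc, Nms, Pdyn, Pnoc, Gnrh1, Trh, Gal and Penk were chosen after their values were seen. The symbol Lhb has 2 rows and was given no value.

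Alternatives were DESeq2 1.42.0, scaling by library totals or RLE factors, the length-rescaled counts, no filter, a minimum mean of 1 CPM, limma 3.58.1 on log2(TPM + 1) and log2(TPM + 0.1) with a minimum mean TPM of 1, all 16 libraries in 1 fit, the pool as a block, and each library left out. Summing Avp and Oxt and leaving out pools 1 and 8 were added after seeing the data.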

Additional observations from a re-analysis of the deposited data

Results flagged for a closer look

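Ucn3 in the input of control pool 1 had 0.263 CPM, while the other 3 control inputs had 0.695 to 0.721 CPM. The value stood far below the rest of its group by Dixon's rule for groups of 4. Chance flags about 1 in 20 groups, and 28 groups of the 7 genes were examined. Pool 1 was also the lowest control input for the other 6 genes.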

How the results depend on the processing

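For pulldown against input, every alternative that could test a gene kept the direction and call of Avp, Oxt, Npvf and Pmch. Hcrt kept its direction but did not pass with limma on log2(TPM + 1) or on log2(TPM + 0.1), at -0.57 and -0.58 in control pools and -0.46 and -0.47 in the others. Over libraries left out 1 at a time, values in control pools ran from -5.09 to -4.52 for Avp, -4.09 to -3.66 for Oxt, -2.67 to -2.32 for Npvf, -1.93 to -1.44 for Hcrt and 0.58 to 0.86 for Pmch. Crh ran from -0.07 to 0.27 there and Ucn3 from -0.15 to 0.37, changing sign, and neither passed. Both could not be tested with a minimum of 1 CPM or on TPM in several comparisons, where too low a mean left them out.

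The replicate block, with the pool as a term, changed no call of the 7 genes, with Hcrt at -1.63 and -1.40 and 12178 and 11054 genes passing in control and Lepr-deletion pools, and raised the count for the difference of enrichment from 2 to 4.

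Counts between genotypes depended on the settings. In pulldown 108 genes passed, against 266 without a filter, 1065 with DESeq2, 16 with rescaled counts, 41 and 20 with limma on log2(TPM + 1) and log2(TPM + 0.1), 508 with all 16 libraries in 1 fit, and 19 to 1262 with a library left out. In input 41 passed, against 108 with library totals, 261 without a filter, 380 with DESeq2, 11 with rescaled counts, 18 and 17 with limma, 361 without pools 1 and 8, and 19 to 402 with a library left out. For the difference of enrichment 2 passed, against 4 with RLE factors, 4 with library totals, 6 without a filter, 21 with DESeq2, 0 with rescaled counts, 6 and 5 with limma, 6 without pools 1 and 8, and 1 to 5 with a library left out. The cause was not tested.

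Small genotype differences changed sign. With a library left out, input values ran from -0.24 to 0.33 for Avp, -0.10 to 0.37 for Crh and -0.30 to 0.45 for Ucn3, and differences of enrichment from -0.17 to 0.40 for Avp, -0.26 to 0.16 for Oxt and -0.09 to 0.21 for Pmch. The difference of enrichment of Pmch was -0.04 with library totals and -0.03 with limma on either TPM scale, and that of Avp -0.06 and -0.03 with limma. Without pools 1 and 8, Avp in input was -0.11 and the difference of enrichment of Oxt 0.09. Without the 2 farthest pools the r of input levels was -0.39 for Avp and Npvf, -0.93 for Oxt and Hcrt, -0.69 for Oxt and Pmch, -0.91 for Oxt and Npvf, -0.17 for Oxt and Ucn3, -0.11 for Pmch and Crh and -0.36 for Crh and Npvf.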
